A study of Mus musculus with 8 samples.

Results

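The genes described here are the 10 members of the Robo, Slit, netrin-receptor and FLRT guidance families that were named for this account: the ligands Slit1, Slit2 and Slit3, the surface proteins Flrt2 and Flrt3, and the receptors Robo1, Robo2, Robo3, Dcc and Unc5d. The rule that chose them is a list of names, drawn up with earlier results of these data known. All 10 were found by symbol among the 55487 identifiers of the deposited tables and passed the filter on low values. The study sequenced RNA of mouse cortex taken at embryonic day E18.5, in 8 libraries. The 4 control libraries came from embryos with floxed Upf2 and no recombinase, of which 3 were Upf2 fl/fl and control 2 was Upf2 fl/+. The 4 libraries labelled Upf2cKO were Upf2 fl/fl;Emx1-Cre, in which Cre is driven from Emx1, a gene of dorsal forebrain progenitors. Excitatory neurons and radial glia of the cortex thus derive from recombined cells, whereas interneurons, microglia and vessels do not. Nothing in the labels assigns embryos to litters, and p-values measure only how much these libraries spread, which may be technical.

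Slit proteins are secreted ligands that repel growing axons and migrating neurons through Robo receptors. Dcc is the receptor through which netrin attracts axons, and receptors of the Unc5 family mediate repulsion from netrin. Unc5d also binds the shed ectodomains of Flrt2 and Flrt3. In the developing cortex its interaction with Flrt2 delays the radial migration of neurons on their way to the upper layers. Robo3 differs from its relatives in that the mammalian protein binds Slits poorly and serves commissural axons crossing the midline. One of its splice forms retains an intron with a premature stop codon and is known in commissural neurons to be degraded by NMD, which stands for nonsense-mediated mRNA decay and requires Upf2.

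Only Robo3 and Slit2 carry transcripts annotated as NMD substrates, 1 and 3 of them, in the GENCODE annotation of mm10 used here. Such a transcript is annotated for 27.7% of the 14030 protein-coding genes tested, beside 2 of the 10 members. The ends of the reading frames of these transcripts are shown because these stop codons are what marks the transcripts as NMD substrates in the annotation. Each run gives the last 30 bases of the frame as annotated, read 5′ to 3′ in the sense of the transcript, with the stop codon in capitals.
Robo3-205: tctcttgtctctttcattccctctaagTAA
Slit2-201: ttgtcacactttggttatccgactgggTGA
Slit2-212: tctcatccggcttctgccatttacaggTGA
Slit2-219: actggattacaaccagatcagctgcatTGA

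The Robo3-205 run lies at chr9:37417195-37417224 on the minus strand, and 0 of its 30 bases are exonic in a protein-coding Robo3 transcript, so the frame ends within sequence that those transcripts splice out. Its stop codon stands 498 nucleotides upstream of the last exon junction. The Slit2-212 run lies at chr5:48283493-48283522 and the Slit2-219 run at chr5:48182249-48182278, both on the plus strand, with the stop codon 178 and 275 nucleotides upstream of the last junction. The Slit2-201 run spans an exon junction between positions 48247211 and 48249839 of chromosome 5, and its stop codon stands 1725 nucleotides upstream of the last junction. The deposited values are whole-gene totals, which do not separate these transcripts from the coding ones.

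Slit2 and Slit3 also host the genes of miR-218 in their introns. Their mature sequences are shown, with the seed (bases 2 to 8) in capitals, because the 2 host genes were both higher in Upf2cKO and encode the same 5p strand.
mmu-miR-218-5p: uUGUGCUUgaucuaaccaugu
mmu-miR-218-1-3p: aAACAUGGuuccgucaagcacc
mmu-miR-218-2-3p: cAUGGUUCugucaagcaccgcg
The 5p strand is identical in both genes (Mir218-1 in Slit2, with this strand at chr5:48223966-48223986, and Mir218-2 in Slit3, at chr11:35616840-35616860), whereas the seeds of the 3p strands differ. The sequences are RefSeq's, on GRCm38.p6. The libraries were made from long RNA, and the deposited rows of the miRNA genes were close to empty: Mir218-1 had 0.14 to 0.24 CPM in controls and 0.04 to 0.12 CPM in Upf2cKO, and Mir218-2 had at most 0.01 CPM in any library. These rows are under the filter and were not tested, and they do not measure the mature miRNAs.

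Values are in CPM, counts scaled so that each library sums to the same total. Steps between low values gave a depth of 96.6 M to 156.0 M reads a library, at which 1 read was worth 0.0064 to 0.0104 CPM. Of 16573 genes tested, 36.7% were higher and 26.3% were lower in Upf2cKO, and in 56.6% the groups did not overlap. Rescaling by median-of-ratios size factors gave a split of 31.0% higher against 34.9% lower. Upf2 itself had 58.1 to 68.5 CPM in controls and 135 to 154 CPM in Upf2cKO (2.31-fold higher, limma adjusted p = 3.35e-08). A two-sided exact permutation test gave p = 0.0286, which is the lowest possible with 70 arrangements. Since it is a whole-gene total, this value is no check of the deletion or of the labels. Tbr1, a marker of cortical excitatory neurons, had at least 216.9 CPM in every library. None of the cortical marker lists described further on had a marker at 0 in all libraries. Upf2cKO 1 stood apart: 253 genes were at least 2-fold above the highest of the other 3 Upf2cKO libraries, against 1 to 24 genes for any other library beside the rest of its own group, and Robo3 was among the 253.

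Of the 10 members, 4 rose in Upf2cKO (Slit1, Slit2, Slit3 and Flrt2), 3 fell (Robo2, Unc5d and Flrt3) and 3 did not pass the test (Robo1, Robo3 and Dcc). Over all genes tested 63% passed, so 7 of 10 is close to the background. The groups did not overlap in the 4 that rose, as in 34.3% of all genes, nor in Robo2 and Unc5d among those that fell, as in 22.3% of all genes. The median log2 change of the members was 0.03, against 0.04 over all genes tested. With Flrt2 and Flrt3 counted as ligands, 4 of the 5 ligands rose and 1 fell (Flrt3), and of the 5 receptors 0 rose and 2 fell. The difference between these classes was not tested. The changes were 1.15-fold to 1.503-fold.

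**Figure D1:**
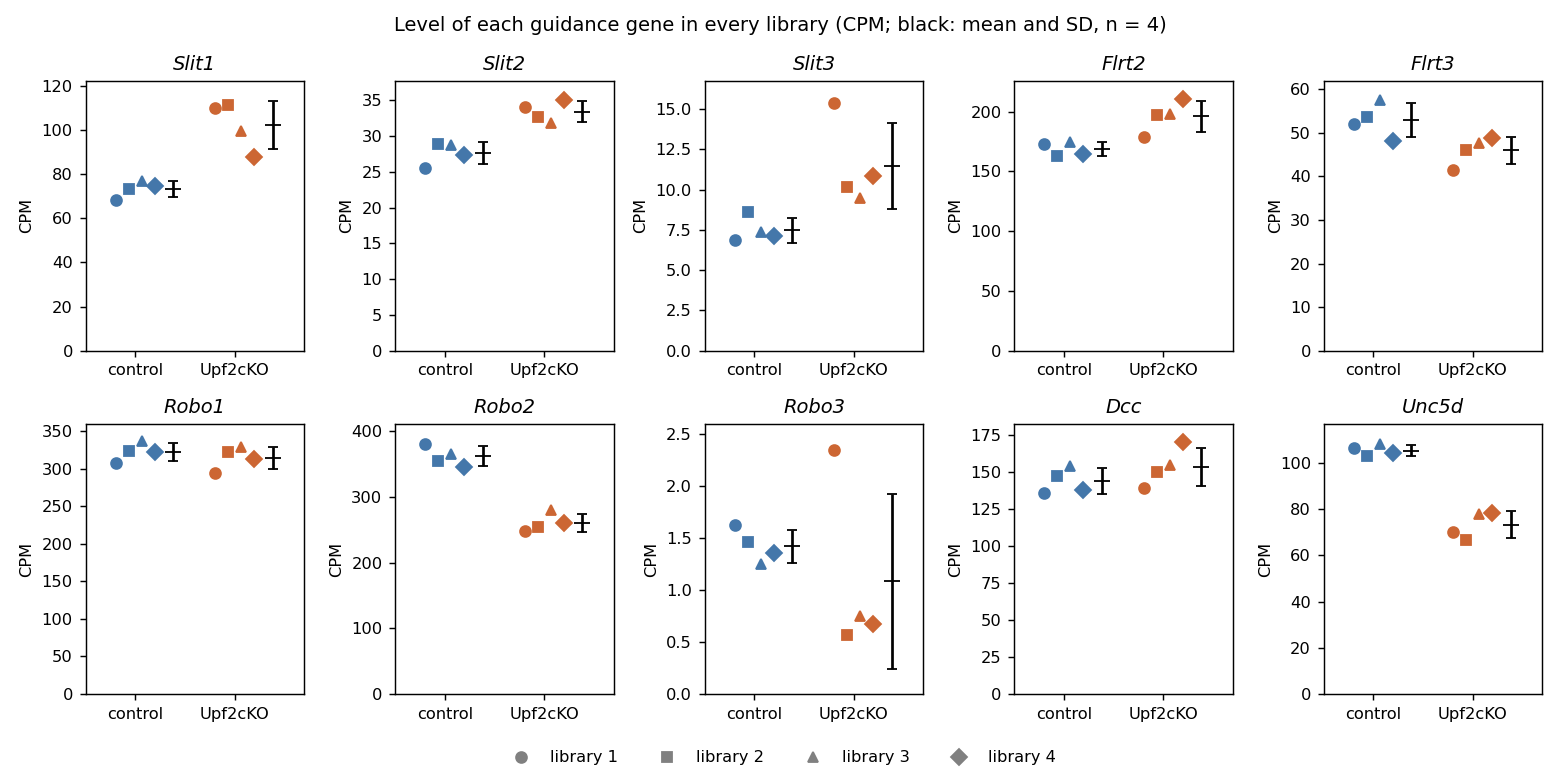
Level of each of the 10 genes in every library, in CPM on a linear axis from 0, with controls in blue and Upf2cKO in orange; marker shapes number the libraries, and the black bar is the mean with its SD (n = 4). Slit1, Slit2, Slit3 and Flrt2 lie higher and Robo2 and Unc5d lower in Upf2cKO without overlap, and Robo3 has Upf2cKO 1 at 2.34 CPM above all other libraries.

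The Slits are large secreted proteins that the receptors Robo1 and Robo2 bind. Slit1, on chromosome 19 of mm10, the build of all coordinates here (41600257 to 41743665, minus strand), stood at 68.2, 73.4, 76.7 and 74.7 CPM in control libraries 1 to 4, against 110, 111, 99.7 and 87.7 CPM in Upf2cKO 1 to 4. Every Upf2cKO library was above every control, and Upf2cKO 4 was the lowest of its group. The mean rose from 73.3 ± 3.65 CPM (SD, n = 4) to 102 ± 10.9 CPM (SD, n = 4), a log2 change of 0.47 (SE 0.0733, 1.39-fold, limma adjusted p = 0.000219).

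Slit2, on chromosome 5 (47983138 to 48307733, plus strand), had 25.5, 28.8, 28.7 and 27.3 CPM in controls and 34.0, 32.7, 31.9 and 35.1 CPM in Upf2cKO. The groups did not overlap, and their gap was small beside the level: the highest control and the lowest Upf2cKO library stood at 28.8 and 31.9 CPM. The change was 1.21-fold (log2 change 0.28, SE 0.0536, adjusted p = 0.00105). Slit2 has 23 annotated transcripts, 10 of them with a retained intron, and the total does not separate them.

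Slit3, on chromosome 11 (35121224 to 35708507, plus strand), had 6.88, 8.62, 7.35 and 7.11 CPM in controls and 15.4, 10.1, 9.51 and 10.9 CPM in Upf2cKO. The groups did not overlap, and Upf2cKO 1 was the highest library by far. The change was 1.503-fold with all libraries (log2 change 0.59, SE 0.139, adjusted p = 0.00373) and 1.36-fold without Upf2cKO 1 (log2 change 0.44, adjusted p = 0.00130). Slit3 was thus higher in all 4 Upf2cKO libraries, and only its size leaned on Upf2cKO 1.

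The FLRT proteins are leucine-rich repeat membrane proteins that adhere to each other and to latrophilins and repel cells that carry Unc5 receptors. Flrt2, on chromosome 12 (95692226 to 95785215, plus strand), had 173, 163, 175 and 164 CPM in controls and 179, 197, 198 and 210 CPM in Upf2cKO. The groups did not overlap, although control 3 at 175 CPM and Upf2cKO 1 at 179 CPM were close. The change was 1.16-fold (log2 change 0.21, SE 0.0513, adjusted p = 0.00401), and after median-of-ratios rescaling it no longer passed (log2 change 0.13, adjusted p = 0.0686).

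Flrt3, on chromosome 2 (140650914 to 140671469, minus strand), went the other way. It had 51.9, 53.7, 57.6 and 48.2 CPM in controls and 41.6, 45.9, 47.6 and 48.7 CPM in Upf2cKO, and the groups overlapped, since Upf2cKO 4 was above control 4. The fall was 1.15-fold (log2 change -0.20, SE 0.065, adjusted p = 0.0197), and it was the weakest of the 7 calls: it was lost on the deposited TPM (adjusted p = 0.120), without control 2 (adjusted p = 0.0503) and without control 3 (adjusted p = 0.0601). Flrt3 lies within an intron of Macrod2 on the other strand, and Macrod2 fell as well, 1.45-fold (from 103 ± 2.85 to 71.2 ± 4.51 CPM, adjusted p = 3.98e-06). The exons of the pair do not overlap. Which strand setting was used for counting is unknown here, and the part of Macrod2 reads in the Flrt3 value was not tested.

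Among the receptors, the paralogs Robo1 and Robo2 parted. They lie 845.7 kb from each other on chromosome 16 (Robo1 at 72308306 to 73046095, plus strand; Robo2 at 73891839 to 74411825, minus strand) and encode the main Slit receptors of the forebrain. Robo2 had 381, 355, 366 and 346 CPM in controls and 248, 254, 280 and 260 CPM in Upf2cKO. The groups stood well apart, with 346 CPM in the lowest control and 280 CPM in the highest Upf2cKO library. Robo2 fell 1.39-fold (log2 change -0.47, SE 0.0479, 95% interval -0.58 to -0.37, adjusted p = 9.24e-06).

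Robo1 had 308, 324, 337 and 323 CPM in controls and 294, 322, 329 and 313 CPM in Upf2cKO, and the groups overlapped over most of their range. Its log2 change was -0.04 with a 95% interval of -0.14 to 0.06 (adjusted p = 0.484), which does not reach the change of Robo2. On the deposited TPM the sign of the Robo1 value was positive (log2 change 0.02, adjusted p = 0.707). After median-of-ratios rescaling Robo1 came close to the threshold on the lower side (log2 change -0.13, adjusted p = 0.0543).

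Robo3, on chromosome 9 (37415669 to 37433246, minus strand, 0.6 kb from Robo4), was the least abundant member and the one whose result turned on a single library. It had 1.62, 1.46, 1.25 and 1.35 CPM in controls and 2.34, 0.57, 0.75 and 0.67 CPM in Upf2cKO. Upf2cKO 1 was the highest of all 8 libraries, whereas the other 3 Upf2cKO libraries were the lowest of all. With all libraries the log2 change was -0.57 with a 95% interval of -1.34 to 0.19 (adjusted p = 0.170).

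Without Upf2cKO 1, Robo3 fell from 1.42 ± 0.159 CPM (SD, n = 4) to 0.663 ± 0.0902 CPM (SD, n = 3), 1.99-fold lower (log2 change -0.99, limma adjusted p = 0.000114). Upf2cKO 1 was singled out after its Robo3 value was seen, so this p-value is no separate support for a fall. Leaving out any other single library gave limma adjusted p of 0.196 to 0.383. No value here separates the annotated NMD transcript from the rest. The Robo3 values stood for an estimated 165 to 224 reads in controls and 66 to 93 reads in Upf2cKO 2 to 4, against 226 reads in Upf2cKO 1.

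Dcc, the netrin receptor on chromosome 18 (71253634 to 72351069, minus strand), had 135, 147, 154 and 138 CPM in controls and 139, 150, 155 and 170 CPM in Upf2cKO. The groups overlapped, although Upf2cKO 4, and Upf2cKO 3 by less than 1 CPM, lay above all controls. The log2 change was 0.09 with a 95% interval of -0.05 to 0.23 (adjusted p = 0.224), and after median-of-ratios rescaling it was 0.01.

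Unc5d, on chromosome 8 (28646717 to 29219636, minus strand), fell more than any other member that passed the test on all libraries. It had 107, 103, 108 and 104 CPM in controls and 70.2, 66.6, 78.0 and 78.6 CPM in Upf2cKO. The lowest control was above the highest Upf2cKO library by a margin wider than the range of either group. The fall was 1.44-fold (log2 change -0.53, SE 0.0554, 95% interval -0.65 to -0.40, adjusted p = 1.24e-05).

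The Unc5d locus also holds Svet1, a transcript from an Unc5d intron long used to mark the subventricular zone and upper-layer neurons. Svet1 had 0.10, 0.17, 0.24 and 0.12 CPM in controls and 0.03, 0.09, 0.08 and 0.07 CPM in Upf2cKO. Each Upf2cKO library was below each control, but 0.10 CPM in control 1 and 0.09 CPM in Upf2cKO 2 differ only by the last decimal given. The level was under the filter, so the difference was not tested.

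**Figure D2:**
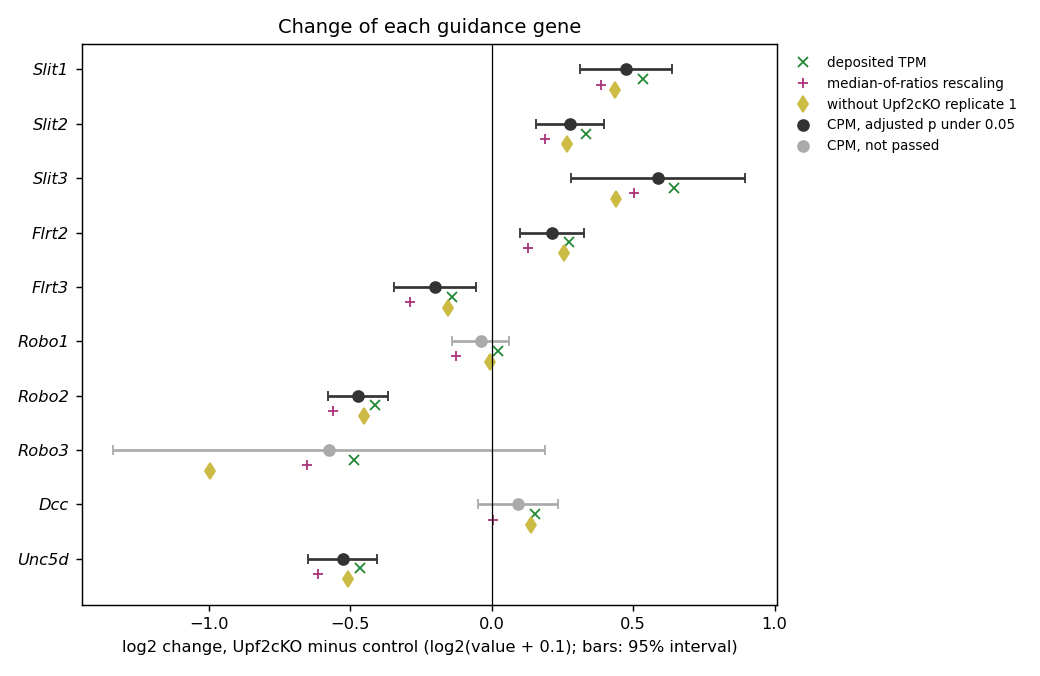
Change of each gene as the difference in log2(value + 0.1), Upf2cKO minus control, with limma's 95% interval; black points passed the test and grey points did not, and the coloured marks give the value on TPM, after median-of-ratios rescaling and without Upf2cKO 1. Robo3 has the widest interval, from -1.34 to 0.19, and moves to -0.99 without Upf2cKO 1.

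Per length, the 10 genes spanned from 0.823 to 86.6 TPM in controls. The TPM divides by a length, which was recovered from the CPM and TPM of each gene and equalled the summed length of all annotated exons of the gene (ratio 0.9998 to 1.0002). In controls Flrt2 (86.6 ± 4.08 TPM), Robo2 (84.4 ± 4.46 TPM) and Robo1 (77.5 ± 3.02 TPM) led, and neighbours among these overlapped. Slit1 (49.0 ± 2.37 TPM), Unc5d (45.3 ± 1.501 TPM), Dcc (43.2 ± 2.78 TPM) and Flrt3 (43.1 ± 3.56 TPM) followed, each overlapping the next.

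Slit3 (4.89 ± 0.491 TPM), Slit2 (4.295 ± 0.231 TPM) and Robo3 (0.823 ± 0.0964 TPM) were far lower and did not overlap each other. The order of Slit2 and Slit3 depends on the length used. The exons of Slit2 sum to 25433 nucleotides while its longest coding transcript has 9960, and those of Slit3 sum to 6067 nucleotides with a longest coding transcript of 5228. In CPM, Slit2 exceeded Slit3 in every library. The places of Flrt2 and Slit1 beside the Robo genes depend on the length as well. The exons of Robo1 and Robo2 sum to 16511 and 16983 nucleotides, with longest coding transcripts of 7563 and 8591. Those of Flrt2 and Slit1 sum to 7721 and 5921 nucleotides, with longest coding transcripts of 7099 and 5673. In CPM, Robo1 and Robo2 exceeded Flrt2 and Slit1 in every library.

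In Upf2cKO the order on this scale, which rests on the summed exon length, changed. Flrt2 stood alone at the top with 105 ± 7.67 TPM, followed by Robo1 with 78.7 ± 4.36 TPM, Slit1 with 71.3 ± 7.06 TPM and Robo2 with 63.4 ± 4.10 TPM, where neighbours overlapped. Slit1 was below Robo2 in all 4 controls on this scale and above it in Upf2cKO 1, 2 and 3. This crossing depends on the length used, and in CPM Slit1 was below Robo2 in every library. Unc5d moved from above Dcc to below Flrt3, with 32.9 ± 2.98 TPM against 39.1 ± 2.98 TPM, although the last pair overlapped.

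**Figure D3:**
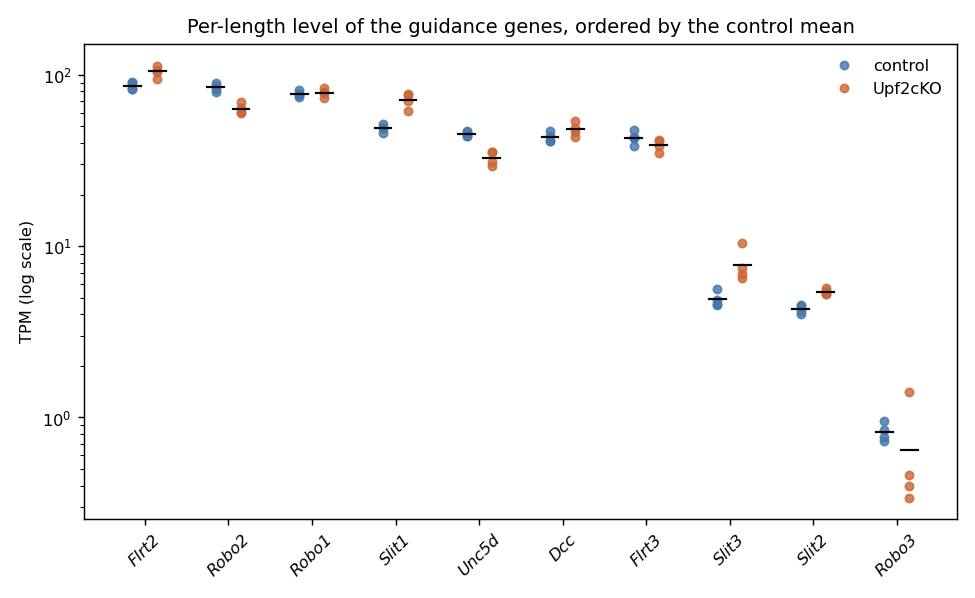
Level per length of the 10 genes in each library, in TPM on a log axis, ordered by the control mean, with controls in blue and Upf2cKO in orange and a black line at each mean. The leading 7 genes have control means between 43.1 and 86.6 TPM, and Slit3, Slit2 and Robo3 lie at 4.89, 4.295 and 0.823 TPM.

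A ratio of a pair of genes within a library does not depend on how the library was scaled. Its size does depend on the lengths used for the TPM, so only its shift between the groups is read here. The TPM of Flrt2 was 1.94, 1.89, 1.93 and 1.88 times that of its receptor Unc5d in controls 1 to 4, and 3.04, 3.53, 3.03 and 3.20 times in Upf2cKO 1 to 4. The controls lay within a narrow range and every Upf2cKO library was far above it. The ratio of Slit1 to Robo2 was 0.514, 0.593, 0.602 and 0.620 in controls and 1.27, 1.26, 1.02 and 0.967 in Upf2cKO. It was higher in every Upf2cKO library, with more spread. The ratio of Flrt3 to Unc5d was 0.876 to 1.01 in controls and 1.12 to 1.31 in Upf2cKO. That of Slit1 to Robo1 was 0.618 to 0.645 in controls and 0.782 to 1.04 in Upf2cKO. The pairs were chosen with the values of the genes known, so the ratios are a description and were not tested.

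**Figure D4:**
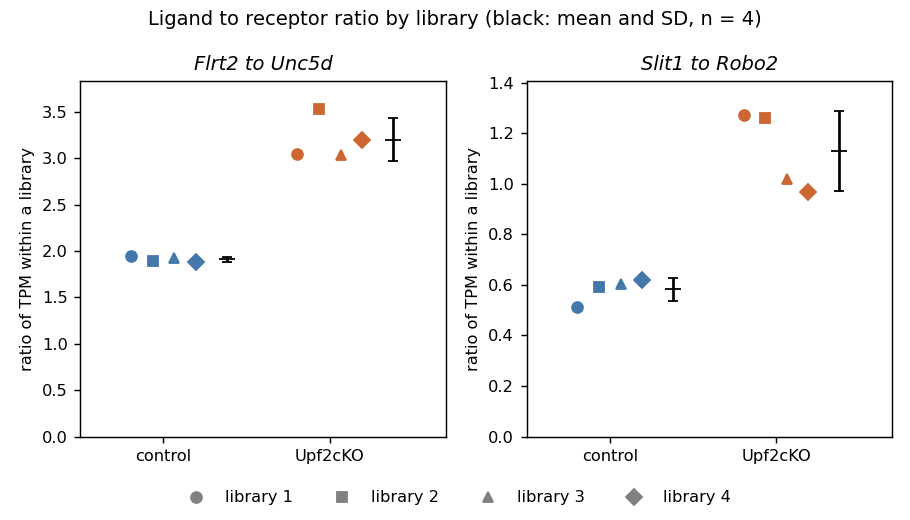
Ratio of the TPM of Flrt2 to that of Unc5d (left) and of Slit1 to Robo2 (right) in each library, on linear axes from 0, with the mean and SD of each group in black (n = 4). The ratio of Flrt2 to Unc5d is between 1.88 and 1.94 in controls and between 3.03 and 3.53 in Upf2cKO.

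Cell type markers moved between the groups as well. Their counts stand beside 36.7% higher and 26.3% lower over all genes tested. In bulk tissue, fewer cells of a type and less RNA per cell cannot be told apart. Of 11 upper-layer neuron markers, 9 were lower and 1 was higher, and their summed level was 3866 to 4243 CPM in controls and 2436 to 2752 CPM in Upf2cKO. Of 6 intermediate progenitor markers, 2 were lower and 0 higher (231 to 292 CPM summed in controls, 172 to 212 CPM in Upf2cKO), while radial glia markers were lower in 9 of 11 and higher in 0 (2222 to 2257 CPM and 1600 to 1782 CPM). Of 12 deep-layer markers, 8 were lower and 2 higher (1417 to 1474 CPM and 1191 to 1365 CPM).

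Other neuron types, vessels and glia were followed in the same way, beside the same shares of 36.7% higher and 26.3% lower. All 14 markers of GABAergic interneurons were higher (505 to 572 CPM summed in controls, 754 to 867 CPM in Upf2cKO, median log2 change of the list 0.60), as were 6 of 8 Cajal-Retzius markers, with 1 lower (152 to 163 CPM and 182 to 219 CPM). Of 8 endothelial markers 0 were higher and 5 lower (162 to 172 CPM and 126 to 138 CPM). Meningeal fibroblast markers were low, with 1 of 7 tested higher and 1 lower, and summed to 14.8 to 17.2 CPM in controls and 20.3 to 24.5 CPM in Upf2cKO. Dcn was the marker called higher, with means of 2.63 and 9.42 CPM, and Ogn the marker called lower, with 1.705 and 1.0 CPM. Of 6 microglia markers 4 were higher and 0 lower (30.8 to 39.8 CPM and 73.6 to 107 CPM). Subplate markers were higher in 3 of 7 and lower in 1, pericyte markers lower in 2 of 5 and oligodendrocyte lineage markers lower in 3 of 4. Of markers of neighbouring tissue, 4 of 9 for striatum and 2 of 3 for thalamus were lower, and for hippocampus and cortical hem 2 of 4 were higher and 2 lower. Choroid plexus markers, with 0 of 3 called, summed to 2.72 to 128.5 CPM in controls and 3.11 to 278.7 CPM in Upf2cKO, highest in control 4 and Upf2cKO 4. No marker of these lists was at 0 in all libraries. The lists with the lowest median log2 changes were upper-layer neurons (-0.56), radial glia (-0.41), striatum (-0.40), oligodendrocyte lineage (-0.38) and deep-layer neurons (-0.34). The part of these shifts in the changes of the guidance genes was not tested.

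The wider guidance pathway was followed through 49 further genes, of which 48 passed the filter on low values: 9 were higher, 20 were lower and 19 did not pass the test. The median log2 change was -0.11, against 0.04 over all genes tested, where 36.7% were higher and 26.3% lower. With median-of-ratios size factors 8 were higher and 29 lower, against 31.0% and 34.9% of all genes tested in that setting. On TPM 12 were higher and 18 lower, against 40.5% and 20.3% of all genes.

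Of 9 ligands tested, 2 were higher and 5 lower. Ntn1, which encodes netrin-1, the ligand of Dcc and the Unc5 receptors, was scarce in this tissue and did not pass the test (6.61 ± 0.928 and 5.84 ± 1.26 CPM, adjusted p = 0.288). Nell2, which encodes a ligand of Robo3, fell 1.28-fold (from 480 ± 13.6 to 376 ± 23.8 CPM, limma adjusted p = 9.42e-05), and Ntn4, a netrin of basement membranes, fell 1.36-fold (from 11.8 ± 0.572 to 8.66 ± 0.501 CPM, limma adjusted p = 0.000179). Ntn3 rose from 14.6 ± 0.959 to 32.9 ± 2.56 CPM (2.24-fold, adjusted p = 1.51e-07), but its exons overlap those of Tbc1d24 on the same strand, so its value is uncertain. Ntn5 had at most 0.55 CPM and was not tested.

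Of 19 other receptors and binding partners, 4 were higher and 7 lower. Within the Unc5 family the members did not move together. Unc5a rose from 50.3 ± 3.46 to 66.5 ± 3.93 CPM (1.32-fold, adjusted p = 0.000157). Its exons overlap those of Hk3 on the other strand, which had 0.517 and 2.33 CPM on average. By contrast, Unc5b had 17.2 ± 1.08 and 17.4 ± 0.388 CPM (adjusted p = 0.787) and Unc5c 34.4 ± 5.08 and 31.9 ± 1.77 CPM (adjusted p = 0.381). The largest changes were in the cell adhesion molecules Dscam, which also serves as a netrin receptor, and Dscaml1. Dscam rose from 57.3 ± 1.64 to 116 ± 7.89 CPM (2.02-fold, adjusted p = 4.61e-08) and Dscaml1 from 70.3 ± 4.98 to 136 ± 11.04 CPM (1.92-fold, adjusted p = 6.32e-07). Lrrc4, which encodes a synaptic partner of netrin-G2, fell 1.40-fold (from 49.1 ± 1.34 to 35.0 ± 0.869 CPM, limma adjusted p = 1.96e-06).

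Latrophilins and teneurins form complexes with FLRT proteins. Of the 3 latrophilin genes 2 were lower, and of the 4 teneurin genes 1 was lower and 1 was higher. Adgrl2, chosen here after its values were seen, fell 1.37-fold (from 409 ± 3.498 to 298 ± 23.0 CPM, limma adjusted p = 2.29e-05), and Tenm3, chosen in the same way, fell 1.49-fold (from 320 ± 12.2 to 216 ± 24.4 CPM, limma adjusted p = 4.68e-05).

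Of 20 intracellular effectors, 3 were higher and 8 lower. The focal adhesion kinase gene Ptk2, whose product acts downstream of Dcc, rose from 174 ± 4.05 to 225 ± 9.11 CPM (1.29-fold, adjusted p = 1.56e-05). Srgap2, whose product is a Slit-Robo GTPase-activating protein, fell 1.22-fold (from 278 ± 2.84 to 227 ± 4.603 CPM, limma adjusted p = 2.22e-05), while its paralogs Srgap1 and Srgap3 had adjusted p = 0.0650 and 0.140. Ndfip2, an adaptor of Nedd4-family ubiquitin ligases, fell 1.24-fold (from 57.4 ± 2.42 to 46.3 ± 1.68 CPM, limma adjusted p = 0.000141).

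**Figure D5:**
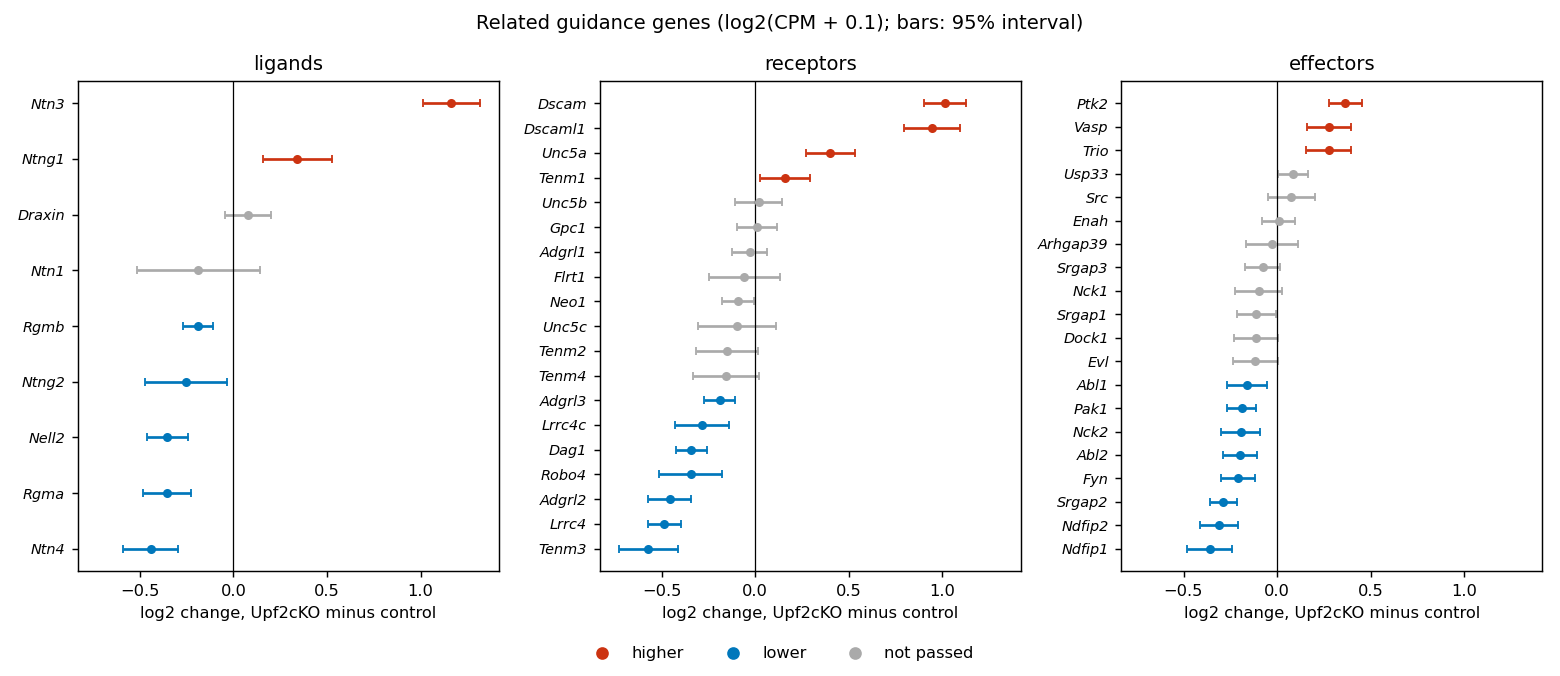
Change of the 48 related guidance genes that passed the filter, as the difference in log2(CPM + 0.1), Upf2cKO minus control, with limma's 95% interval, split into 9 ligands, 19 receptors and partners and 20 effectors; red genes were higher, blue genes lower and grey genes did not pass. Dscam, Dscaml1 and Ntn3 stand apart at the right with log2 changes of 1.01, 0.94 and 1.16.

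Genes with the most similar profile were sought among 14029 other protein-coding genes, by the root mean square difference over the 8 libraries of log2(CPM + 0.1) centred on each gene's mean. A close profile says nothing of shared control. The nearest were Gpr45 (0.0388) and Drd1 (0.0398) for Robo2, Cldn34c1 (0.0308) and Ptx3 (0.0409) for Unc5d, Scn8a (0.0423) and Plbd2 (0.0535) for Slit1, Paf1 (0.0388) and Ccnyl1 (0.0410) for Slit2, and Fam114a2 (0.0298) for Flrt2. For the genes with small changes they were Elf2 (0.0221) and Psd2 (0.0250) for Robo1, Zfp157 (0.0301) and Zkscan4 (0.0393) for Dcc, and 4833420G17Rik (0.0249) and Zfp280c (0.0262) for Flrt3. Slit3 and Robo3, the members with Upf2cKO 1 far from the rest, had no neighbour as close: Tmbim1 (0.108) and Prox1 (0.108) for Slit3, and Wfs1 (0.128) and Apod (0.134) for Robo3. These differences are not scaled to a gene's own spread about its mean. That spread was 0.359 for Slit3 and 0.603 for Robo3, against 0.0576 for Robo1 and 0.102 for Dcc.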

How the data were processed

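RNA from embryonic mouse cortex was sequenced in 8 libraries, with 4 controls and 4 Upf2cKO grouped by the labels. The authors deposited CPM and TPM, each with 1 column per library and 2 decimals. Among the tools in the submitters' processing notes are STAR 2.7.11a, fastp 0.23.4 and DESeq2, with the mm10 build and no roles. How genes were counted, and with which strand setting, is unknown here. Per the labels' protocols the kit was stranded.

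A gene was kept when 4 or more libraries reached 0.5 CPM. The test was limma 3.58.1 under R 4.3.3, two-sided, on log2(CPM + 0.1), with an intensity trend and no covariate. Benjamini-Hochberg adjustment ran over all 16573 genes kept, and calls used 0.05. Folds are on the log2(CPM + 0.1) scale and are too small for low genes. Adjusted p-values are limma's. The fit was tested on simulated data with independent noise and far fewer changed genes than were called here. That test checks the fitting code and not the calls made here. No count test was run, since a step of 2 decimals of CPM is about as large as 1 read. Depth came from the TPM steps of short genes, 593 to 735 values per library, of which 100.0% were whole within 0.15 reads.

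Symbols and coordinates are from GENCODE M21, which matched 55227 of 55487 identifiers. The members, the lists of related genes and markers and the rules were chosen with earlier results of these data known. Named related genes are Ntn1, Unc5a, Unc5b, Unc5c and the 3 with the smallest adjusted p in each class. Adgrl2, Tenm3, Ntn5, Srgap1, Srgap3, Svet1, Macrod2, Dcn, Ogn and Tbr1 were named outside that rule, and 1 gene that the rule on similar profiles names is not reported here. Alternatives were another pseudocount, another filter on low values, TPM, median-of-ratios rescaling, no trend, a replicate block and leaving out libraries.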

Additional observations from a re-analysis of the deposited data

Results flagged for a closer look

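In 48 groups of 4 values, 3 held a library far from the other 3, and chance gives about 1 in 20. Robo3 stood at 2.34 CPM in Upf2cKO 1 while Upf2cKO 2, 3 and 4 had 0.57 to 0.75 CPM. Unc5c stood at 34.53 CPM in Upf2cKO 2 against 30.8 to 31.37 CPM in the others. Dscam stood at 54.86 CPM in control 1 against 57.79 to 58.38 CPM in the others.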

How the results depend on the processing

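Over 17 alternatives, 163 of 169 values of single members kept their direction and side of the threshold. The sign of Robo1 turned on TPM (log2 change 0.023). Robo3 passed the test only without Upf2cKO 1, Flrt2 failed it only after median-of-ratios rescaling, and Flrt3 failed it on TPM and without control 2 or control 3. The calls of Slit1, Slit2, Slit3, Robo2 and Unc5d held in all 17. The members called numbered 3 or 4 higher and 2 to 4 lower. No count of calls moved by over 1.5 times. With a replicate block, 4 members were higher and 3 lower, 8 related genes were higher and 24 lower, and 6126 genes were higher and 4423 lower over all. Same-numbered libraries had correlations across genes of 0.42, 0.05, 0.52 and 0.19. Differently numbered ones ranged from -0.45 to 0.33, so the 0.42 and 0.52 were above them all. The labels do not say that equal numbers share a litter, and the main test did not take the numbers as pairs. Without control 4 and Upf2cKO 4, the libraries with the most choroid plexus RNA and a setting chosen after seeing the data, 4 members were higher and 3 lower. Robo3 rested on the fewest reads, 66 to 226 a library, and could not be tested with a filter of 2 CPM.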
